A study of Mus musculus with 6 samples.

Results

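The genes described here are 35 genes of fatty acid uptake and mitochondrial beta-oxidation in primary mouse adipocytes, taken by gene symbol from a table of 35976 gene rows. All 35 symbols were in the table, and all 35 genes passed the filter on low values (2 or more libraries at a normalized count of 10 or above). The adipocytes carried loxP-flanked copies of Ppargc1a (genotype Ppargc1a fl/fl), received adenovirus encoding either GFP or Cre and then an siRNA, and were fully differentiated before RNA was taken. Stranded mRNA libraries were sequenced for 3 groups of 2 samples each: GFP virus with control siRNA ("control libraries"), GFP virus with an siRNA against Rbm43 ("Rbm43 siRNA libraries"), and Cre virus with the Rbm43 siRNA ("Cre libraries"). Every group, controls included, thus had the floxed genotype, a virus and an siRNA, and the labels do not name the promoter that drives Cre. Cre virus with control siRNA was not analysed here. The labels call the samples biological duplicates without saying whether they came from separate animals, so p-values measure only the spread between these samples, which may be technical. The sources used here do not give the age, sex or fat depot of the donor mice.

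Fatty acids enter adipocytes through membrane proteins, are carried by small binding proteins and are joined to coenzyme A by acyl-CoA synthetases. The carnitine shuttle moves the long-chain acyl groups into the mitochondrial matrix, where a cycle of dehydrogenation, hydration, a further dehydrogenation and thiolysis releases acetyl-CoA, with separate enzymes for long, medium and short chains. Electrons from the first dehydrogenation pass through the electron transfer flavoprotein to the respiratory chain. Ppargc1a encodes PGC-1alpha, a transcriptional coactivator known for its role in mitochondrial and oxidative gene programs in brown fat and muscle, and Rbm43 encodes a protein with an RNA-binding motif.

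Reads in genes ranged from 15775398 to 21961724 per library. Rbm43 normalized counts were 185 and 224 in the control libraries, 43.7 and 46.6 in the Rbm43 siRNA libraries, and 53.8 and 32.5 in the Cre libraries, a log2 difference of −2.15 between the Rbm43 siRNA and control libraries. Ppargc1a was listed at 163 and 202 in the control libraries, 399 and 423 in the Rbm43 siRNA libraries, and 463 and 469 in the Cre libraries. A count over the whole Ppargc1a gene can include exons outside the loxP sites, so it does not check the excision. All 12 adipocyte markers reached a normalized count of 10 in at least 1 library. So did all 12 markers of preadipocytes and fibroblasts, of which 11 passed the filter on low values, and all 11 macrophage markers. Summed normalized counts were 107519 to 152249 for the adipocyte markers. The preadipocyte and fibroblast sums were 679853 to 755423, mostly from Col1a1, Col3a1 and Fn1. Sums over different genes do not compare numbers of cells. In bulk samples such as these, fewer cells of a type and less RNA per cell cannot be told apart.

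Most of the 35 genes were higher with Rbm43 siRNA than with control siRNA, and most were lower with Cre virus than with GFP virus when Rbm43 siRNA was present. In the first comparison (Rbm43 siRNA minus control siRNA, both with GFP virus), 24 of 35 rose and 1 fell at an adjusted p under 0.05 (limma with Benjamini-Hochberg adjustment over 14211 genes). Of all genes tested, 13.5% rose and 9.76% fell (23.2% in all). Without control replicate 1, 3 of the 35 fell (Acad11, Acsl4 and Acot2). The median log2 difference was 0.25 over the 35 genes and −0.01 over all genes tested. In the second comparison (Cre virus minus GFP virus, both with Rbm43 siRNA), 25 of 35 fell, against 5.88% of all genes, where 8.5% changed in either direction. None of the 35 rose by limma, edgeR or DESeq2, against 2.62% of all genes by limma, and 1 gene (Acsl4) was higher at an unadjusted p under 0.05 and was called when either control replicate was left out. With libraries scaled to equal totals instead, 565 of all genes rose and 734 fell in this comparison, against 372 and 836. The number of genes called depended on single libraries: the 1208 of all genes became 310 and 329 without Cre replicate 1 and 2, 457 without Rbm43 siRNA replicate 2, and 2060 and 2067 without control replicate 1 and 2. In the first comparison the 3301 became 2101 without Rbm43 siRNA replicate 2 and 2045 with DESeq2. The median log2 difference was −0.35 over the 35 genes and 0.00 over all genes tested. The comparisons share the Rbm43 siRNA libraries, so their directions are not independent of each other.

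The third comparison set both treatments together (Cre virus with Rbm43 siRNA) against neither (GFP virus with control siRNA). Here 5 of the 35 genes rose (Fabp4, Acsl5, Acaa2, Etfdh and Acot13) and 8 fell (Fabp5, Echs1, Hadh, Eci1, Decr1, Acad10, Acad11 and Acot2), while 22 did not pass the test. Of all genes tested, 8.47% rose and 6.28% fell (14.7% in all), and the median log2 difference was −0.04 over the 35 genes. The control libraries are shared with the first comparison and the Cre libraries with the second. Leaving out libraries moved these counts: 2 rose and 2 fell without Cre replicate 1, 1 rose and 2 fell without Cre replicate 2, and 3 rose and 11 fell without control replicate 2. The 2096 of all genes called became 765 and 826 without Cre replicate 1 and 2, and 1229 with DESeq2. Echs1, Etfdh and Acad11 kept their calls whichever library was left out.

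In the first comparison the log2 differences of the 35 genes ran from −0.31 (Acad11) to 0.96 (Cpt1b), and in the second from −0.67 (Acaa2) to 0.16 (Acsl4). Both Rbm43 siRNA libraries were above both control libraries for 27 genes and below both for 3 (Acsl4, Acad10 and Acad11), each of these directions holding for 29.2% of all genes tested. Both Cre libraries were below both Rbm43 siRNA libraries for 32 genes, against 27.5% of all genes, and above both for Acsl4, against 26.2%. In the third comparison both Cre libraries were above both control libraries for 9 genes and below both for 17, against 27.4% and 27.2% of all genes. When the model used no trend of the spread with the mean level, 12 of the 35 rose and 0 fell in the first comparison. At an unadjusted p under 0.05, 24 of the 35 were higher there and 1 lower. Over all 14211 genes tested, this model called 877 higher and 427 lower, and 4145 were different at an unadjusted p under 0.05. In the second comparison the same model called 0 of the 35, and 0 genes in all, with 27 of the 35 lower and 2355 genes different at an unadjusted p under 0.05. On recovered reads edgeR called 25 of the 35 lower there and DESeq2 25, of 1336 and 826 genes called in all.

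Most markers of fat cells that passed the test moved in the direction of most of the 35 genes in the first 2 comparisons. The summed normalized counts of 12 adipocyte markers were 118668 and 107519 in the control libraries, 148157 and 152249 in the Rbm43 siRNA libraries, and 123067 and 124158 in the Cre libraries. Of the 12, 7 rose and 2 fell in the first comparison, with log2 differences from −1.56 to 0.85, and 7 fell in the second. In the third, 3 rose and 4 fell, with differences from −1.72 to 0.51. Shares over all genes tested were 13.5% higher and 9.76% lower in the first comparison, and 2.62% and 5.88% in the second. In the third they were 8.47% and 6.28%. These shares are also the background for the other marker lists of this paragraph. The sums of 8 brown adipocyte markers were 7307 and 6744, then 10381 and 10602, then 6759.8 and 6989, with 6 rising in the first comparison and 5 falling in the second. In the third comparison 5 of the 8 rose (Ucp1, Cidea, Dio2, Cox8b and Ppargc1a) and 2 fell (Cox7a1 and Elovl3), with a median log2 difference of 0.58. These 8 markers include the floxed gene Ppargc1a, whose count does not check the excision. The sum is mostly Elovl3, with 4852 and 4567 in the control libraries, 4906 and 5281 in the Rbm43 siRNA libraries, and 3690.2 and 3979 in the Cre libraries. Marker sums of preadipocytes and fibroblasts were 748278 and 755423, then 712266 and 679853, then 754421 and 746881. Of the 11 of these markers that could be tested, 5 fell in the first comparison, and 1 (Fn1) rose in the second. There 7 log2 differences were positive and 4 negative. In the third comparison 3 of the 11 fell and 0 rose. Col1a1, Col3a1 and Fn1 make up most of that sum. The part of cell composition in the members' differences was not tested.

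**Figure D1:**
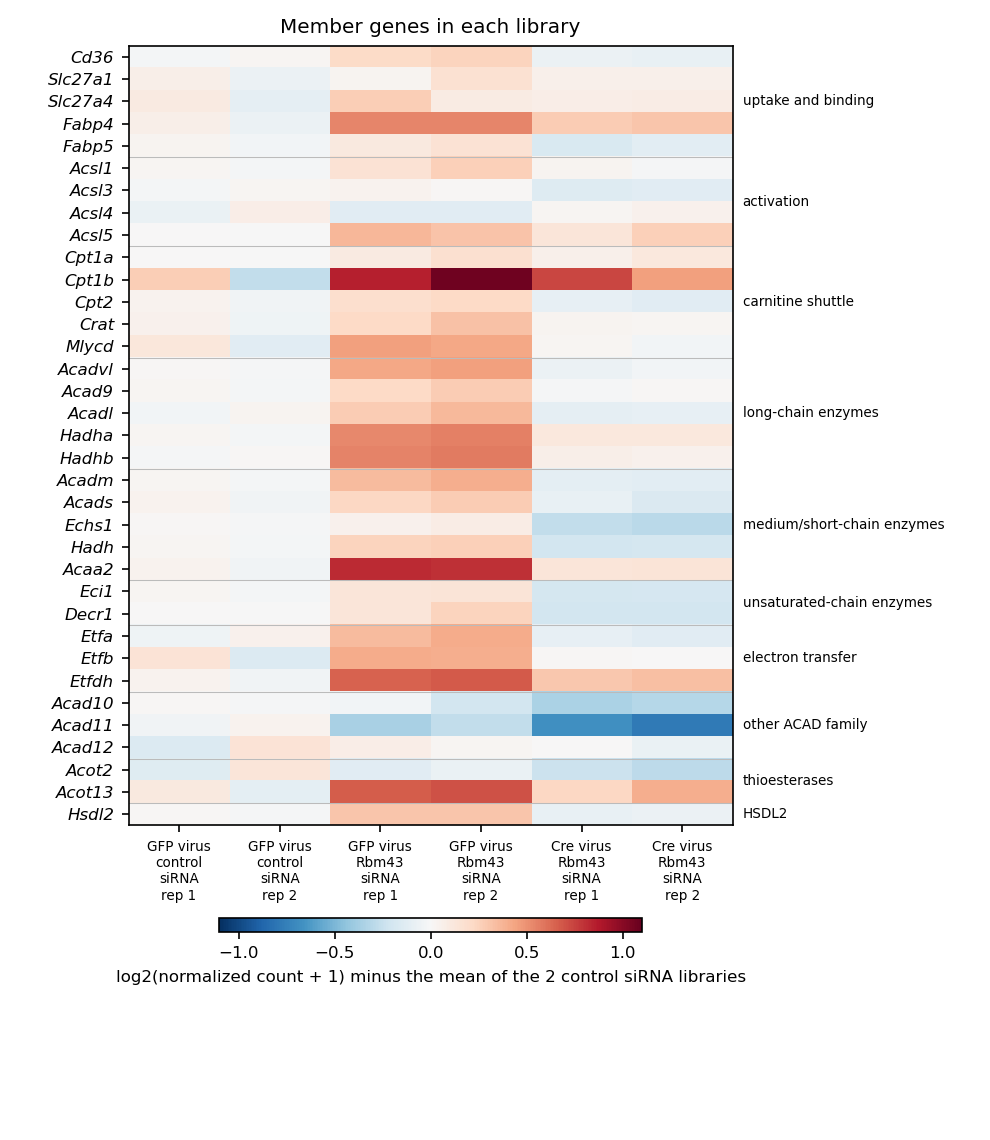
Heat map of the 35 genes (rows, ordered by step) in the 6 libraries (columns). Colour is log2(normalized count + 1) minus the mean of the 2 control libraries. The 2 Rbm43 siRNA columns are redder than the 2 control columns for most genes, with Acaa2 and Cpt1b strongest, and the row of Acad11 is bluest in the 2 Cre libraries.

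Together the 35 genes took 1.84% and 1.77% of all normalized counts in the control libraries, 2.28% and 2.35% in the Rbm43 siRNA libraries, and 1.92% and 1.92% in the Cre libraries. Fabp4 made up much of this share. Without it the shares were 1.13% and 1.11%, then 1.31% and 1.38%, then 1.09% and 1.08%. The Rbm43 siRNA libraries had the highest shares in both calculations.

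Per kilobase of merged exons, Fabp4 had the highest level of the 35 genes, with a mean of 35894 normalized counts per kb over the 6 libraries. It was followed by Cd36 at 9646, Fabp5 at 5252, Acaa2 at 4524 and Acsl1 at 4266. By the length of the longest transcript instead, Fabp4 and Cd36 were again first, followed by Acsl1 at 7879, Fabp5 at 5786 and Etfb at 4603, with Acaa2 after Etfa. At the other end by merged exons were Cpt1a at 170.2 normalized counts per kb, Acad9 at 150.3, Acad10 at 46.9, Acad12 at 31.7 and Cpt1b at 5.44. In all, 18 of the 35 genes were above 1000 per kb. Merged exons include annotated transcript models with retained introns, as in Fabp4, so levels per length are approximate. For Fabp4 and Fabp5 the longest transcripts (4231 and 3238 bases) are nearly as long as the merged exons (4489 and 3567 bases). For these genes the longest transcript is therefore little check on the order given. By the longest transcript 23 genes were above 1000 per kb. By that length Cpt1a was at 301 and Acad9 at 313, above Acsl5, Acot2, Slc27a4 and Mlycd, while Acad10, Acad12 and Cpt1b were again the lowest.

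**Figure D2:**
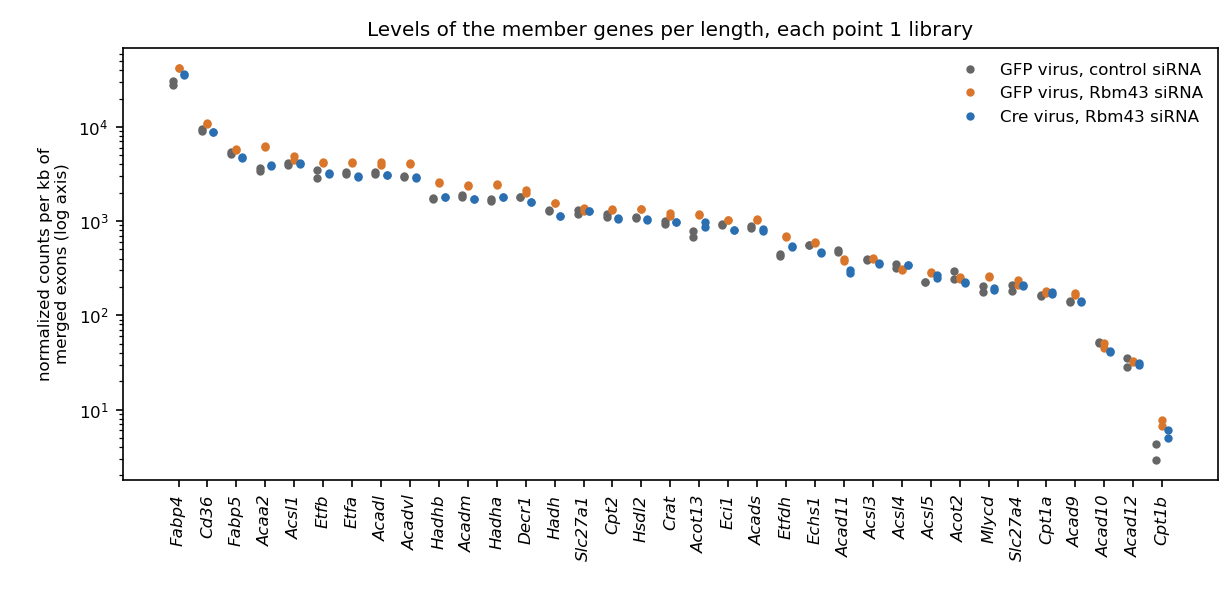
Normalized counts per kb of merged exons (log axis) for the 35 genes in order of their mean, each point 1 library, coloured by group. Levels ran from 35894 (Fabp4) to 5.44 (Cpt1b), and differences between the groups were small beside differences between genes.

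Among the uptake and binding genes, 3 of 5 rose in the first comparison and 3 of 5 fell in the second. Fabp4 and Fabp5 encode cytosolic fatty acid-binding proteins, and in GENCODE M21 (mm10 build) Fabp4 lies on chromosome 3, 10204088 to 10208576, minus strand. Fabp4 normalized counts were 137846 and 125493 in the control libraries, 191083 and 190516 in the Rbm43 siRNA libraries, and 159622 and 162219 in the Cre libraries. The 3 groups did not overlap, and the Cre libraries lay between the other groups. The log2 difference was 0.54 ± 0.06 (SE, adjusted p = 1.45e-06) in the first comparison, −0.25 ± 0.06 (SE, adjusted p = 0.0106) in the second and 0.29 ± 0.06 (SE, adjusted p = 0.00177) in the third. Fabp5 counts were 19136 and 18294 in the control libraries, 20158 and 20905 in the Rbm43 siRNA libraries, and 16644 and 17265 in the Cre libraries, so that the Cre libraries were the lowest. Its log2 differences were 0.13 ± 0.05 (SE, adjusted p = 0.0469), −0.28 ± 0.05 (SE, adjusted p = 8.10e-04) and −0.14 ± 0.05 (SE, adjusted p = 0.0487). The Fabp5 rise was near the threshold and was lost under most other settings, at 0.10 without control replicate 2, 0.16 without Rbm43 siRNA replicate 1, 0.11 without its replicate 2 and 0.13 with either Cre replicate left out.

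Cd36 encodes the fatty acid translocase of the plasma membrane (chromosome 5, 17781690 to 17888801, minus strand). Its counts were 32745 and 33841 in the control libraries, 38513 and 39363 in the Rbm43 siRNA libraries, and 31784 and 31534 in the Cre libraries. Both Rbm43 siRNA libraries were above the other 4, whose groups differed from each other by a log2 difference of −0.07 ± 0.05 (SE, adjusted p = 0.343). Cd36 rose by 0.23 ± 0.05 (SE, adjusted p = 0.00135) in the first comparison and changed by −0.30 ± 0.05 (SE, adjusted p = 3.56e-04) in the second. Slc27a1 and Slc27a4 encode fatty acid transport proteins FATP1 and FATP4, and neither passed the test in any of the 3 comparisons. Slc27a1 counts were 7600.2 and 6919.7 in the control libraries, 7418 and 8127 in the Rbm43 siRNA libraries, and 7544 and 7537 in the Cre libraries, and the groups overlapped. The 95% interval of its log2 difference was −0.01 to 0.21 in the first comparison and −0.16 to 0.07 in the second. Slc27a4 counts were 926 and 806 in the control libraries, 1042 and 921 in the Rbm43 siRNA libraries, and 907 and 916 in the Cre libraries, with intervals of 0.02 to 0.34 and −0.26 to 0.05. Without control replicate 1, both passed in the first comparison, at 0.17 for Slc27a1 and 0.28 for Slc27a4, and Slc27a4 also passed without Rbm43 siRNA replicate 2, at 0.27. The Fabp4 fall in the second comparison did not pass without Rbm43 siRNA replicate 2 (−0.25), Cre replicate 1 (−0.23) or Cre replicate 2 (−0.26), and the Fabp5 fall did not pass without Cre replicate 1 (−0.25). In the third comparison the Fabp4 rise did not pass without Cre replicate 1 (0.30) or 2 (0.28), and the Fabp5 fall did not pass without control replicate 1 (−0.11) or without Cre replicate 1 (−0.12) or 2 (−0.17).

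Of the 4 acyl-CoA synthetases, which activate fatty acids, 2 rose in the first comparison (Acsl1 and Acsl5) and 1 fell in the second (Acsl1). Acsl1, the main long-chain acyl-CoA synthetase of adipocytes (chromosome 8, 46471037 to 46536051, plus strand), had counts of 43061 and 41739.5 in the control libraries, 47194 and 50985 in the Rbm43 siRNA libraries, and 43293 and 42043 in the Cre libraries. Both Rbm43 siRNA libraries were the highest, and the control and Cre libraries overlapped. The log2 differences were 0.21 ± 0.05 (SE, adjusted p = 0.00508) and −0.20 ± 0.05 (SE, adjusted p = 0.0166) in the first 2 comparisons. Acsl5, found at mitochondria and the endoplasmic reticulum, had counts of 1099 and 1087 in the control libraries, 1404 and 1354 in the Rbm43 siRNA libraries, and 1202 and 1308 in the Cre libraries. It rose by 0.34 ± 0.06 (SE, adjusted p = 3.88e-04) in the first comparison and by 0.20 ± 0.06 (SE, adjusted p = 0.0328) in the third, and differed by −0.14 ± 0.06 (SE, adjusted p = 0.193) in the second. Its exons overlap those of Zdhhc6 on the opposite strand over 8.31% of their length, and the sources used here do not say whether counting used the strand.

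Acsl3, a synthetase of the endoplasmic reticulum and lipid droplets, did not pass in any comparison, with counts of 1685 and 1727 in the control libraries, 1752 and 1721 in the Rbm43 siRNA libraries, and 1546 and 1564 in the Cre libraries. Acsl4, which prefers arachidonic acid, was the member whose Cre libraries lay above both Rbm43 siRNA libraries. Its counts were 1721 and 1905 in the control libraries, 1665 and 1656 in the Rbm43 siRNA libraries, and 1837 and 1866 in the Cre libraries. Its log2 differences of −0.12 ± 0.06 (SE, adjusted p = 0.133) and 0.16 ± 0.06 (SE, adjusted p = 0.108) ran opposite to those of most of the 35 genes and did not pass the test. It passed in the second comparison with either control replicate left out (0.16 in each case) and in the first without control replicate 1 (−0.20), and Acsl3 passed in the second likewise (−0.16 in each case). The Acsl1 rise did not pass without Rbm43 siRNA replicate 2 (0.15), nor did its fall without that library (−0.15), Cre replicate 1 (−0.22) or Cre replicate 2 (−0.18). The Acsl5 rise in the third comparison did not pass without Cre replicate 1 (0.26) or 2 (0.14).

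The carnitine shuttle and its regulation were covered by 5 genes, of which 4 rose in the first comparison, 3 fell in the second and none passed in the third by limma, edgeR or DESeq2, with 1 gene (Cpt2) past an unadjusted p of 0.05. Cpt1a encodes the carnitine palmitoyltransferase of the outer mitochondrial membrane, the regulated entry step of the pathway (chromosome 19, 3322334 to 3385733, plus strand). Its counts were 1242 and 1228 in the control libraries, 1319.7 and 1392 in the Rbm43 siRNA libraries, and 1285 and 1339 in the Cre libraries. Cpt1a was among the few members with no call in any of the 3 comparisons, at 0.13 ± 0.06 (SE, adjusted p = 0.108) in the first and −0.05 ± 0.06 (SE, adjusted p = 0.713) in the second. The 95% intervals of these differences were 0.01 to 0.26 and −0.17 to 0.07. Cpt1b, the isoform typical of muscle and brown fat, was the lowest of the 35 genes, with normalized counts of 14.6 and 9.74 in the control libraries, 22.3 and 26.1 in the Rbm43 siRNA libraries, and 20.6 and 16.7 in the Cre libraries. Its rise of 0.96 ± 0.34 (SE, adjusted p = 0.0495) rested on few reads and was called by neither edgeR (0.97) nor DESeq2 (0.99). It was also lost without control replicate 2 (0.69), Rbm43 siRNA replicate 1 (1.07) or 2 (0.85), or Cre replicate 1 or 2 (0.96 in each case). Of the 75-base stretches of Cpt1b transcripts, 92.1% also occur in the overlapping gene Gm44502, which was listed at 0 in every library.

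Inside the mitochondrion, Cpt2 rebuilds acyl-CoA from acylcarnitine. Cpt2 counts were 2817 and 2672 in the control libraries, 3123 and 3201 in the Rbm43 siRNA libraries, and 2574 and 2514 in the Cre libraries, with the Cre libraries lowest. It rose by 0.20 ± 0.05 (SE, adjusted p = 0.0057) and then changed by −0.31 ± 0.05 (SE, adjusted p = 4.71e-04) with Cre virus. Crat, carnitine acetyltransferase, had counts of 5369 and 5038 in the control libraries, 6053 and 6503 in the Rbm43 siRNA libraries, and 5303 and 5275 in the Cre libraries. Its log2 differences were 0.27 ± 0.05 (SE, adjusted p = 5.44e-04) and −0.25 ± 0.05 (SE, adjusted p = 0.00353). Mlycd encodes malonyl-CoA decarboxylase, which removes the inhibitor of carnitine palmitoyltransferase at the outer membrane. Its counts were 615 and 519.7 in the control libraries, 771 and 757 in the Rbm43 siRNA libraries, and 573 and 555 in the Cre libraries, with the control and Cre libraries overlapping below both Rbm43 siRNA libraries. The Mlycd differences were 0.43 ± 0.08 (SE, adjusted p = 4.57e-04) and −0.44 ± 0.08 (SE, adjusted p = 0.00135). The Cpt2 rise did not pass without Rbm43 siRNA replicate 2 (0.19), and Cpt2 was called lower in the third comparison without control replicate 2 (−0.15). The Crat fall did not pass without Rbm43 siRNA replicate 2 (−0.19), Cre replicate 1 (−0.25) or Cre replicate 2 (−0.24), and the Mlycd fall did not pass without Cre replicate 2 (−0.42).

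All 5 long-chain enzymes rose in the first comparison, with a median log2 difference of 0.44, and all 5 fell in the second, with a median of −0.43. In the third comparison none of the 5 was called by limma on the deposited scaling, edgeR or DESeq2, their log2 differences ran from −0.09 to 0.12, and 1 gene (Hadha) was past an unadjusted p of 0.05. Hadha and Hadhb encode the alpha and beta subunits of the mitochondrial trifunctional protein, which carries out hydration, dehydrogenation and thiolysis of long chains. Hadha (chromosome 5, 30118304 to 30155162, minus strand) had counts of 14909 and 14389.5 in the control libraries, 21168 and 21515 in the Rbm43 siRNA libraries, and 15873 and 15853 in the Cre libraries. Hadhb (chromosome 5, 30155248 to 30184593, plus strand) had counts of 11394 and 11609 in the control libraries, 16820.5 and 17059.9 in the Rbm43 siRNA libraries, and 12019 and 11917 in the Cre libraries. For both subunits the Rbm43 siRNA libraries were the highest and the Cre libraries lay just above the control libraries. The log2 differences of Hadha were 0.54 ± 0.05 (SE, adjusted p = 5.05e-08) and −0.43 ± 0.05 (SE, adjusted p = 8.27e-06), and those of Hadhb were 0.56 ± 0.04 (SE, adjusted p = 2.69e-08) and −0.50 ± 0.04 (SE, adjusted p = 1.90e-06). Hadha was called higher in the third comparison, at 0.14, without control replicate 1 and also, at 0.14, after quantile normalization.

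The 2 subunit genes stand head to head on mouse chromosome 5, and the stretch between their annotated starts is shown because both genes moved together here. It is chr5:30155163-30155247 (GRCm38.p6, plus strand, from the RefSeq promoter table), 85 bases with 69.4% G or C, and lies in no gene of GENCODE M21.
Hadha-Hadhb: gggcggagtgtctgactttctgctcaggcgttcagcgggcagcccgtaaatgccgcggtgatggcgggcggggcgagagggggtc

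Acadvl, Acadl and Acad9 encode acyl-CoA dehydrogenases that open the cycle on long chains, and Acad9 also takes part in assembling respiratory complex I. Acadvl counts were 8128 and 7971 in the control libraries, 10836 and 11015 in the Rbm43 siRNA libraries, and 7715 and 7903 in the Cre libraries, with a log2 difference of 0.44 ± 0.04 (SE, adjusted p = 6.32e-07) in the first comparison and −0.48 ± 0.04 (SE, adjusted p = 2.31e-06) in the second. Dvl2 on the opposite strand overlaps 42.9% of the Acadvl exons, but its mean normalized count was 289 against 8928 for Acadvl. Acadl counts were 6414 and 6720.0 in the control libraries, 7953 and 8423 in the Rbm43 siRNA libraries, and 6135 and 6170.3 in the Cre libraries, with differences of 0.32 ± 0.05 (SE, adjusted p = 5.84e-05) and −0.41 ± 0.05 (SE, adjusted p = 2.17e-05). For both genes the Rbm43 siRNA libraries stood above the other 4 libraries. Acad9 counts were 1173 and 1142 in the control libraries, 1347 and 1407 in the Rbm43 siRNA libraries, and 1148 and 1169.9 in the Cre libraries, with differences of 0.25 ± 0.06 (SE, adjusted p = 0.00358) and −0.25 ± 0.06 (SE, adjusted p = 0.00946). The Acad9 rise did not pass without Rbm43 siRNA replicate 2 (0.22), nor its fall without that library (−0.22), Cre replicate 1 (−0.23) or Cre replicate 2 (−0.26).

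Of the 5 medium-chain and short-chain enzymes, 4 rose in the first comparison (all but Echs1) and all 5 fell in the second, with medians of 0.26 and −0.46. Acaa2, the mitochondrial 3-ketoacyl-CoA thiolase that closes the cycle, showed the smallest p of the 35 genes in both comparisons. Its counts were 5487 and 5188 in the control libraries, 9417 and 9287 in the Rbm43 siRNA libraries, and 5869 and 5902 in the Cre libraries. The Rbm43 siRNA libraries were far above the other 4, a log2 difference of 0.81 ± 0.05 (SE, adjusted p = 6.80e-10) in the first comparison and −0.67 ± 0.05 (SE, adjusted p = 1.30e-07) in the second. In the third comparison Acaa2 was higher by 0.14 ± 0.05 (SE, adjusted p = 0.0478), a call that edgeR, DESeq2 and the removal of most single libraries did not keep (0.10 without control replicate 2, 0.14 without Rbm43 siRNA replicate 1 or 2 or Cre replicate 2, and 0.15 without Cre replicate 1).

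Acadm and Acads encode the medium-chain and short-chain acyl-CoA dehydrogenases. Acadm counts were 7371 and 7139 in the control libraries, 9249 and 9571 in the Rbm43 siRNA libraries, and 6717 and 6713 in the Cre libraries, with differences of 0.38 ± 0.05 (SE, adjusted p = 5.23e-06) and −0.49 ± 0.05 (SE, adjusted p = 2.31e-06). Acads counts were 2026 and 1921 in the control libraries, 2314 and 2395 in the Rbm43 siRNA libraries, and 1863 and 1766 in the Cre libraries, with differences of 0.25 ± 0.05 (SE, adjusted p = 0.00183) and −0.38 ± 0.05 (SE, adjusted p = 1.82e-04). For both, the Rbm43 siRNA libraries were the highest and the Cre libraries the lowest, and the third comparison was not called unless control replicate 2 was left out (−0.13 for Acadm and −0.16 for Acads). Hadh, the hydroxyacyl-CoA dehydrogenase of shorter chains, had counts of 6585 and 6371 in the control libraries, 7691 and 7784 in the Rbm43 siRNA libraries, and 5625 and 5662 in the Cre libraries. It rose by 0.26 ± 0.05 (SE, adjusted p = 3.31e-04) and its difference with Cre virus was −0.46 ± 0.05 (SE, adjusted p = 4.83e-06). The Cre libraries were also below the control libraries, with a log2 difference of −0.20 ± 0.05 (SE, adjusted p = 0.00513), a call that did not pass without Cre replicate 1 (−0.19) or 2 (−0.20).

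Echs1, the short-chain enoyl-CoA hydratase (chromosome 7, 140105710 to 140116476, minus strand), was the enzyme of this group that did not pass in the first comparison. Its counts were 4677 and 4614 in the control libraries, 4802 and 4919 in the Rbm43 siRNA libraries, and 3854 and 3786 in the Cre libraries. The control and Rbm43 siRNA libraries lay close together, with a log2 difference of 0.07 ± 0.05 (SE, adjusted p = 0.35) and a 95% interval of −0.03 to 0.16. Both Cre libraries were below the other 4, with log2 differences of −0.35 ± 0.05 (SE, adjusted p = 8.73e-05) against the Rbm43 siRNA libraries and −0.28 ± 0.05 (SE, adjusted p = 2.81e-04) against the control libraries.

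**Figure D3:**
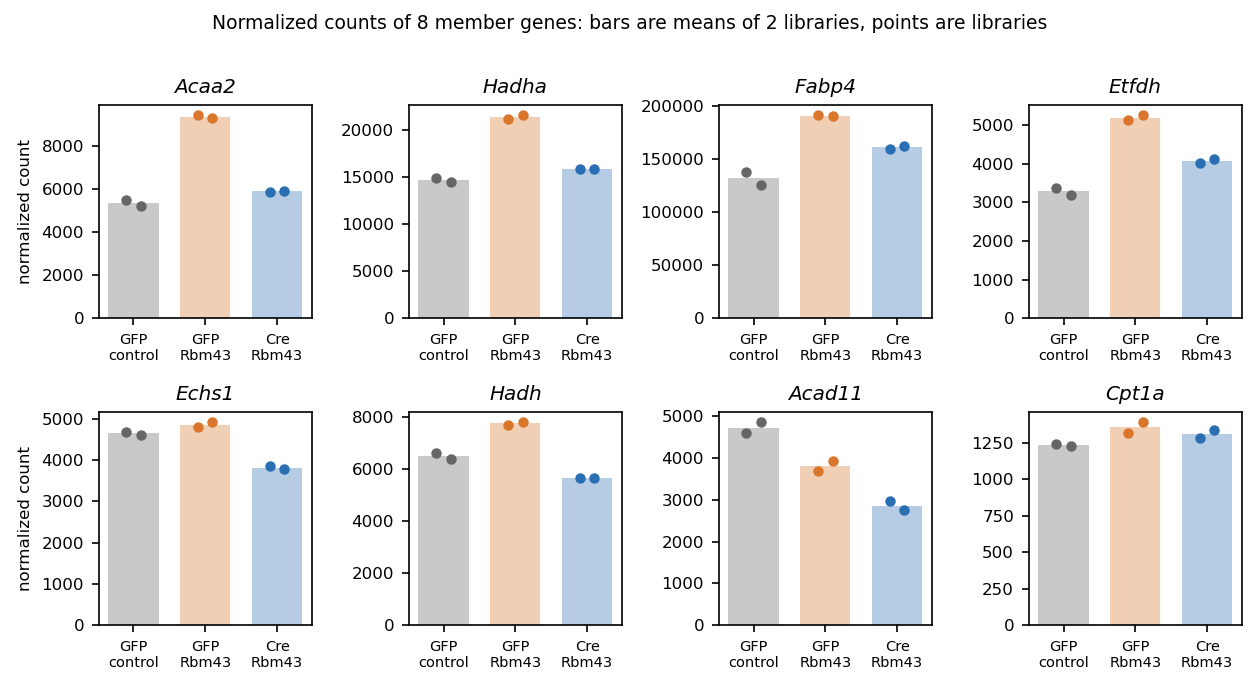
Normalized counts of 8 of the genes, with bars for group means of 2 libraries, points for libraries and each vertical axis starting at 0. Acaa2 and Hadha peak in the Rbm43 siRNA libraries, Fabp4 and Etfdh stay above the control libraries in the Cre libraries, Echs1 and Hadh are lowest in the Cre libraries, Acad11 is highest in the control libraries, and Cpt1a had no call in any comparison.

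Eci1 and Decr1 handle double bonds of unsaturated chains, as enoyl-CoA isomerase and dienoyl-CoA reductase. Decr1 counts were 7061 and 7045 in the control libraries, 7757 and 8380.2 in the Rbm43 siRNA libraries, and 6131 and 6122 in the Cre libraries, with differences of 0.19 ± 0.05 (SE, adjusted p = 0.00608), −0.40 ± 0.05 (SE, adjusted p = 3.36e-05) and −0.20 ± 0.05 (SE, adjusted p = 0.00665) in the 3 comparisons. Eci1 counts were 1998 and 1945 in the control libraries, 2162 and 2177 in the Rbm43 siRNA libraries, and 1724 and 1730.3 in the Cre libraries. Eci1 did not pass in the first comparison at 0.14 ± 0.05 (SE, adjusted p = 0.062). Its Cre libraries were lower than either other group, with log2 differences of −0.33 ± 0.05 (SE, adjusted p = 3.73e-04) and −0.19 ± 0.05 (SE, adjusted p = 0.0164). For both enzymes the Cre libraries were the lowest of the 6. Eci1 passed in the first comparison without control replicate 1 (0.16), and the Decr1 rise did not pass without Rbm43 siRNA replicate 2 (0.14). In the third comparison neither fall passed without Cre replicate 1 or 2 (−0.19 for Eci1 and −0.20 for Decr1 in each case).

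All 3 electron transfer genes rose in the first comparison and fell in the second. Etfa and Etfb encode the subunits of the electron transfer flavoprotein, and Etfdh the membrane oxidoreductase that passes its electrons to ubiquinone. Etfdh (chromosome 3, 79603788 to 79629500, minus strand) had counts of 3377 and 3191 in the control libraries, 5134 and 5254 in the Rbm43 siRNA libraries, and 4024 and 4128 in the Cre libraries. The Cre libraries stood between the control and Rbm43 siRNA libraries, without overlap. The log2 differences of Etfdh were 0.66 ± 0.05 (SE, adjusted p = 1.19e-08), −0.35 ± 0.05 (SE, adjusted p = 1.26e-04) and 0.31 ± 0.05 (SE, adjusted p = 1.61e-04). Etfa counts were 5753 and 6107 in the control libraries, 7561 and 7866 in the Rbm43 siRNA libraries, and 5583 and 5427 in the Cre libraries, with differences of 0.38 ± 0.05 (SE, adjusted p = 8.75e-06) and −0.49 ± 0.05 (SE, adjusted p = 4.74e-06), and its Cre libraries were the lowest. Etfb counts were 4103 and 3331 in the control libraries, 4893 and 4874 in the Rbm43 siRNA libraries, and 3741 and 3719 in the Cre libraries, with differences of 0.40 ± 0.07 (SE, adjusted p = 2.00e-04) and −0.39 ± 0.07 (SE, adjusted p = 9.32e-04). The 2 control libraries of Etfb differed by more than those of its partner Etfa. Without control replicate 1, Etfb was called higher (0.16) and Etfa lower (−0.15) in the third comparison, and without control replicate 2 Etfb was called lower (−0.14). The Etfb fall in the second comparison did not pass without Cre replicate 1 (−0.39) or 2 (−0.38). Of the 75-base stretches of Etfb transcripts, 66.3% also occur in the overlapping gene Gm45233, so its counts are uncertain.

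Acad11 was the member that fell where most rose. It encodes an acyl-CoA dehydrogenase that acts on hydroxylated fatty acids (chromosome 9, 104063377 to 104127725, plus strand). Acad11 counts were 4603 and 4861 in the control libraries, 3703 and 3926 in the Rbm43 siRNA libraries, and 2971 and 2754 in the Cre libraries. The 3 groups did not overlap and stepped down from control to Rbm43 siRNA to Cre libraries. The log2 difference was −0.31 ± 0.05 (SE, adjusted p = 2.46e-04) in the first comparison, −0.41 ± 0.05 (SE, adjusted p = 5.62e-05) in the second and −0.73 ± 0.05 (SE, adjusted p = 2.41e-08) in the third. Acad10 and Acad12, further members of the acyl-CoA dehydrogenase family with low counts, lie next to each other on chromosome 5. Acad10 counts were 317 and 310.4 in the control libraries, 308 and 272 in the Rbm43 siRNA libraries, and 247 and 252 in the Cre libraries, and it was called lower in the third comparison at −0.33 ± 0.10 (SE, adjusted p = 0.0258), a call that did not pass without control replicate 1 (−0.31) or Cre replicate 1 (−0.31) or 2 (−0.35). Acad12 counts were 185 and 228 in the control libraries, 216 and 209 in the Rbm43 siRNA libraries, and 206 and 195 in the Cre libraries, with no call. Acad10 and Acad12 share sequence, with 12.4% and 14.4% of their 75-base stretches found in the other, so that their counts are uncertain.

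Acot2 and Acot13 encode acyl-CoA thioesterases, which release free fatty acids from coenzyme A, Acot2 in the mitochondrial matrix. Acot13 counts were 589 and 506 in the control libraries, 866 and 888 in the Rbm43 siRNA libraries, and 640.2 and 719 in the Cre libraries. It rose by 0.68 ± 0.08 (SE, adjusted p = 3.56e-06), its difference with Cre virus was −0.37 ± 0.08 (SE, adjusted p = 0.0056), and the Cre libraries were above the control libraries by 0.31 ± 0.08 (SE, adjusted p = 0.0117). Acot2 counts were 534 and 644 in the control libraries, 538 and 559 in the Rbm43 siRNA libraries, and 497 and 479.6 in the Cre libraries. It did not pass in the first 2 comparisons and was lower in the third, at −0.26 ± 0.09 (SE, adjusted p = 0.0447). Of its 75-base stretches, 21.2% also occur in Acot1, Acot4 or Acot5, so its counts are uncertain. The Acot13 fall did not pass without Rbm43 siRNA replicate 2 (−0.35) or Cre replicate 1 (−0.29), and its rise in the third comparison did not pass without control replicate 2 (0.20) or Cre replicate 2 (0.23). Acot2 passed in the first comparison without control replicate 1 (−0.23), and in the third it did not pass without control replicate 2 (−0.13), Rbm43 siRNA replicate 1 or 2 (−0.26 in each case), or Cre replicate 1 (−0.29) or 2 (−0.24). Hsdl2, a dehydrogenase-like protein, had counts of 3086 and 3037 in the control libraries, 3779 and 3779 in the Rbm43 siRNA libraries, and 2885 and 2931 in the Cre libraries. Its differences of 0.30 ± 0.05 (SE, adjusted p = 9.58e-05) and −0.38 ± 0.05 (SE, adjusted p = 4.52e-05) resembled those of the long-chain enzymes in direction.

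**Figure D4:**
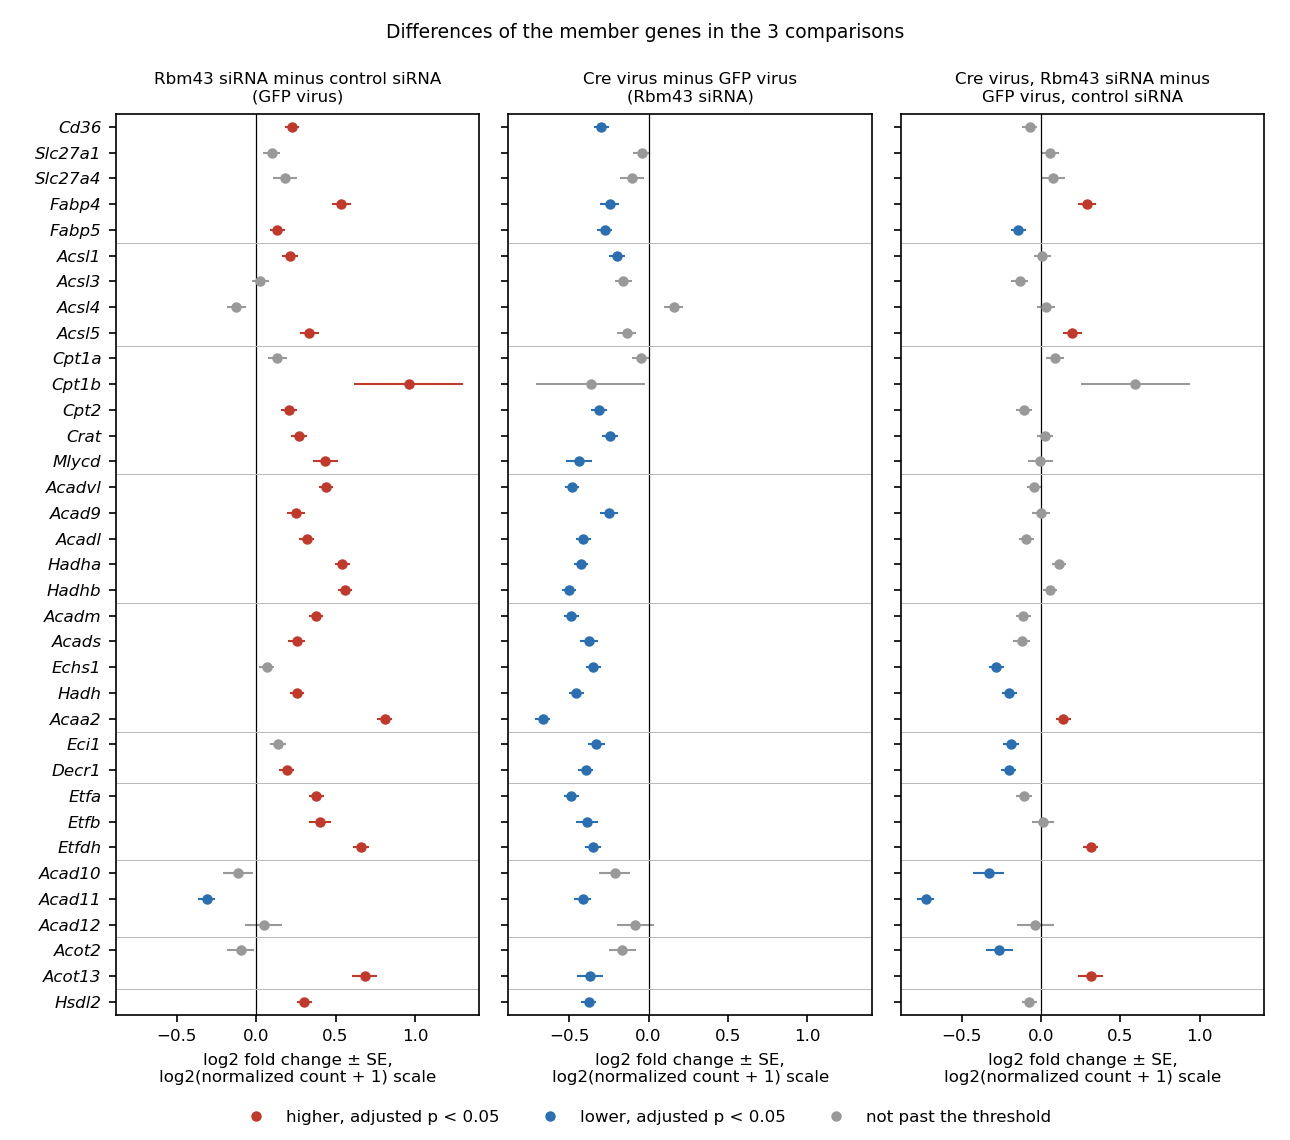
Log2 differences (points) with standard errors (bars) of the 35 genes in the 3 comparisons, on the log2(normalized count + 1) scale. Red marks genes called higher, blue genes called lower and grey genes that did not pass: 24 red and 1 blue in the first panel, 25 blue in the second, and 5 red and 8 blue in the third.

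Other genes of the pathway were taken from 7 lists of 94 genes, of which 74 could be tested. In the first comparison 29 of the 74 rose and 6 fell, with a median log2 difference of 0.18. In the second 33 fell, with a median of −0.21. In the third 9 rose and 16 fell. Of all genes tested, 13.5% rose and 9.76% fell in the first comparison, and 2.62% rose and 5.88% fell in the second. In the third 8.47% of all genes rose and 6.28% fell. These shares are the background for each list below.

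Among regulators of the pathway, 6 of 16 tested genes rose in the first comparison and 7 fell in the second. The list includes the floxed gene Ppargc1a, which is 1 of the 6, at a log2 difference of 1.17. In the third comparison 4 of the 16 rose, Ppargc1a among them at 1.35, and 1 fell. The median log2 difference of the list there was 0.13. Ppara, the nuclear receptor that drives fatty acid oxidation genes, had counts of 848 and 646 in the control libraries, 1818 and 1918 in the Rbm43 siRNA libraries, and 997 and 942 in the Cre libraries. It rose by 1.33 ± 0.09 (SE, adjusted p = 3.92e-09) and changed by −0.95 ± 0.09 (SE, adjusted p = 2.31e-06) with Cre virus. Ppargc1b, the paralog of the floxed gene, changed by 1.07 ± 0.08 (SE, adjusted p = 1.97e-08) and −0.48 ± 0.08 (SE, adjusted p = 8.78e-04). Pparg, the adipocyte receptor, changed by 0.64 ± 0.05 (SE, adjusted p = 2.22e-08) and −0.37 ± 0.05 (SE, adjusted p = 9.48e-05). Plin5, a lipid droplet protein at mitochondrial contacts, changed by 0.87 ± 0.08 (SE, adjusted p = 7.63e-08) and −0.75 ± 0.08 (SE, adjusted p = 5.22e-06).

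In the carnitine list, Slc25a20, the carnitine-acylcarnitine carrier of the inner membrane, had counts of 2551 and 2283 in the control libraries, 2859.7 and 2906 in the Rbm43 siRNA libraries, and 1962 and 2098 in the Cre libraries. Its differences were 0.26 ± 0.06 (SE, adjusted p = 0.00309), −0.51 ± 0.06 (SE, adjusted p = 1.99e-05) and −0.25 ± 0.06 (SE, adjusted p = 0.00593), with the Cre libraries lowest. Acacb makes the malonyl-CoA that inhibits carnitine palmitoyltransferase, and it rose by 0.95 ± 0.05 (SE, adjusted p = 1.89e-10), changed by −0.44 ± 0.05 (SE, adjusted p = 1.77e-05) with Cre virus and stayed higher by 0.50 ± 0.05 (SE, adjusted p = 1.15e-06) in the third comparison. Aldh9a1 rose by 0.41 ± 0.05 (SE, adjusted p = 3.39e-06), and Crot, the peroxisomal carnitine octanoyltransferase, was called lower in the third comparison, at −0.23 ± 0.07 (SE, adjusted p = 0.0266). Of the 8 tested genes of this list, 3 rose in the first comparison and 2 fell in the second.

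Among the auxiliary enzymes of beta-oxidation, 8 of 13 rose in the first comparison and 9 of 13 fell in the second. Ech1, a dienoyl-CoA isomerase, had counts of 4845 and 4771 in the control libraries, 4807 and 4857 in the Rbm43 siRNA libraries, and 3631 and 3697 in the Cre libraries. It differed by 0.01 ± 0.05 (SE, adjusted p = 0.937) in the first comparison and by −0.40 ± 0.05 (SE, adjusted p = 2.17e-05) in the second. Eci2, an enoyl-CoA isomerase, rose by 0.57 ± 0.05 (SE, adjusted p = 1.62e-07) and stayed higher in the third comparison, at 0.33 ± 0.05 (SE, adjusted p = 1.61e-04). Nudt7, a coenzyme A hydrolase of peroxisomes, and Echdc1 rose by 0.45 ± 0.05 (SE, adjusted p = 4.71e-06) and 0.32 ± 0.04 (SE, adjusted p = 3.03e-05).

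The peroxisomal pathway was split in the first comparison, where 6 of 14 tested genes rose and 3 fell. In the second comparison 10 fell, and all 14 log2 differences were negative. In the third 1 rose and 6 fell. Ehhadh, the peroxisomal bifunctional enzyme, rose by 0.81 ± 0.06 (SE, adjusted p = 1.82e-08) and changed by −0.40 ± 0.06 (SE, adjusted p = 3.09e-04) with Cre virus. Hsd17b4 and Abcd3 rose by 0.34 ± 0.05 (SE, adjusted p = 1.75e-05) and 0.38 ± 0.05 (SE, adjusted p = 8.27e-06) in the first comparison. Hacl1, which cleaves hydroxylated acyl-CoA in alpha-oxidation, had counts of 1866 and 1804 in the control libraries, 1082 and 1224 in the Rbm43 siRNA libraries, and 839 and 856 in the Cre libraries. Like Acad11 it stepped down over the 3 groups, with log2 differences of −0.67 ± 0.06 (SE, adjusted p = 2.95e-07) and −0.44 ± 0.06 (SE, adjusted p = 1.93e-04).

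Other uptake and activation genes gave single large changes. Fabp3, the heart-type fatty acid-binding protein, had counts of 81.1 and 93.7 in the control libraries, 111 and 116 in the Rbm43 siRNA libraries, and 18.6 and 29 in the Cre libraries. It differed by 0.37 ± 0.21 (SE, adjusted p = 0.226) in the first comparison and changed by −2.24 ± 0.21 (SE, adjusted p = 2.31e-06) in the second, where both Cre libraries were below the other 4. Dbi, an acyl-CoA-binding protein, changed by 0.31 ± 0.05 (SE, adjusted p = 3.59e-04) and −0.37 ± 0.05 (SE, adjusted p = 2.38e-04), and lipoprotein lipase Lpl rose by 0.18 ± 0.05 (SE, adjusted p = 0.0187) in the first. Cav1, caveolin, was lower in the Cre libraries, at −0.23 ± 0.05 (SE, adjusted p = 0.00292). Of 8 tested genes of the uptake list, 2 rose in the first comparison and 3 fell in the second. In the activation list 3 of 5 rose, led by Acsf2 at 0.71 ± 0.05 (SE, adjusted p = 6.40e-09), and Acss3 fell, at −0.47 ± 0.11 (SE, adjusted p = 0.0025). Acsf3 rose by 0.34 ± 0.08 (SE, adjusted p = 0.00364), and Acss1 rose by 1.02 ± 0.36 (SE, adjusted p = 0.0465) at counts of at most 31.1. The other thioesterases gave 1 rise (Them4) and 2 falls (Acot11 and Acot5) among 10 tested genes in the first comparison. Of all genes tested, 13.5% rose and 9.76% fell there. Them4 was at 0.39 ± 0.12 (SE, adjusted p = 0.0289), Acot11 at −0.60 ± 0.11 (SE, adjusted p = 4.75e-04) and Acot5, at counts of at most 27.0, at −1.44 ± 0.43 (SE, adjusted p = 0.0193). Acot1, at counts of at most 45.7, differed by 0.69 ± 0.26 (SE, adjusted p = 0.0635) and did not pass.

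Promoter windows (250 bases before to 50 after a start) were matched in the RefSeq table for 27 of the 35 genes. They were searched on both strands for the estrogen-related receptor element TNAAGGTCA, for a loose direct repeat of AGGNCA with 1 base between, as bound by PPAR and RXR, and for the nuclear receptor hexamer AGGTCA, which is contained in the first element. The first element was in 0 of 27 windows, against 1.43% of 27025 genes in the table, and the repeat was in 0 of 27, against 0.451%. The hexamer was in 5 of 27 (18.5%), against 18.1% of all genes in the table. The 5 matches are shown with their flanks because both receptor families are known partners of PGC-1alpha. Each sequence is given on its gene's own strand (GRCm38.p6), with the hexamer or its reverse complement TGACCT in capitals. The regions are chr3:153944875-153944893 for Acadm, 249 bases before the start, and chr5:17836107-17836136 for Cd36, 228 before. For Echs1 the region is chr7:140116487-140116516, 83 before, and for Acadvl chr11:70015498-70015527, 87 before. For Cpt1a it is chr19:3323195-3323224, 94 before. Cpt1a is on the plus strand and the other 4 genes are on the minus strand. The Cd36 and Cpt1a matches lie within those genes outside exons, the Echs1 match within Paox on the opposite strand outside exons, and the other 2 in no annotated gene.
Acadm: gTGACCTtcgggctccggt
Cd36: ctctgcactttaTGACCTgagattttcagg
Echs1: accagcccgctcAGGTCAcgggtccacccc
Acadvl: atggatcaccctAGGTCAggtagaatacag
Cpt1a: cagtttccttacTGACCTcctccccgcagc
Among these 5 genes, Acadvl, Acadm and Cd36 rose in the first comparison, Echs1 and Cpt1a did not pass, and all but Cpt1a fell in the second. Over all 35 genes, 24 rose in the first comparison and 25 fell in the second. A match describes letters in the window and does not show that a factor binds there.

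Sums of 11 macrophage markers were 1644 to 1958 over the 6 libraries, and those of 8 endothelial markers 265 to 367. Of the macrophage markers, 3 fell and 0 rose in the first comparison, and 1 fell in the third. Over all genes tested, 9.76% fell in the first comparison and 6.28% in the third. Sums of 8 mural and smooth muscle markers were 55051 to 60669 in the control and 63502 to 66248 in the Rbm43 siRNA libraries. In the Cre libraries they were 75532 to 79085. Of these 8 markers, 5 rose in the first comparison, 6 in the second and 7 in the third. Over all genes tested, 13.5%, 2.62% and 8.47% rose in the 3 comparisons. In the first comparison the log2 differences of all 8 mural and smooth muscle markers and all 7 tested endothelial markers were positive. None of the endothelial ones passed the test. Of 10 skeletal and cardiac muscle markers, 8 stayed under 10 normalized counts in every library, and Myh4, Myh7, Ckm and Myog were at 0 in all 6.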

How the data were processed

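RNA was measured in 6 libraries, 3 groups of 2, with groups and replicate numbers taken from the sample titles. The deposited table gives a normalized signal per gene, made by the authors. In each library 100% of values were whole multiples of 1 step (within 0.01 read), as read counts scaled by a size factor are, with 1 read worth 0.878 to 1.217 normalized counts. Tools named in the submitters' processing notes are STAR 2.7.8, fastp 0.23.2 and DESeq2 2.11.40.7, with mm10 as build. The gene counter, the annotation and any strand setting were not given in the sources used here.

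The 14211 genes at a normalized count of 10 or more in 2 or more libraries were tested with limma 3.58.1 (R 4.3.3) on log2(normalized count + 1), with a mean-variance trend, 1 mean per group and 3 residual degrees of freedom, and p-values were adjusted over all genes tested (Benjamini-Hochberg, threshold 0.05). Log2 differences are on this scale, so changes of low genes are understated. Errors are standard errors, with 2 libraries per group. On the recovered reads, edgeR 4.0.16 called 3263, 1336 and 2111 genes in the 3 comparisons. DESeq2 1.42.0 was a further alternative, beside other pseudocounts, filters and scalings, each library left out, no trend, a replicate block and separate fits of the 2 groups in a comparison. The procedure was also run on simulated counts with known changes in the first comparison only. The simulation used the same spread setting for every gene. It therefore does not check how the calls depend on the model of the spread.

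All 35 genes are named. Values in every library are given for those the results turn on: in each step the smallest p in either of the first 2 comparisons, calls against the direction of most members, genes with no call, and genes at the filter. Of other pathway genes, up to 4 per list with the smallest p are named. The members, lists and rules were chosen with earlier results of these data known. Positions and exon lengths came from GENCODE M21, and promoter sequences from RefSeq (GRCm38.p6).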

Additional observations from a re-analysis of the deposited data

How the results depend on the processing

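The labels do not say whether the same replicate numbers in the 3 groups share an animal or a culture, and they were not treated as pairs. Correlations of same-numbered libraries' deviations from their group means were 0.0187, −0.042 and −0.0373. With 2 libraries a group, these values cannot settle whether the numbers mark pairs. With a replicate block, 22 of the 35 genes rose and 1 fell in the first comparison, 0 rose and 25 fell in the second, and 4 rose and 7 fell in the third. Counts that moved by over 1.5 times were as follows. With no mean-variance trend, 12 rose and 0 fell in the first comparison, 0 fell in the second, and 0 rose and 1 fell in the third. That setting called 1304, 0 and 433 of all genes in the 3 comparisons. With only the 2 groups compared, 1 rose in the second. With no filter, 2 rose and 5 fell in the third, and with DESeq2 3 rose and 4 fell. With each library left out, the range was 19 to 27 higher and 1 to 3 lower in the first comparison, 0 to 1 and 18 to 26 in the second, and 1 to 7 and 2 to 11 in the third. Calls kept whichever library was left out numbered 19 of 25, 17 of 25 and 3 of 13.

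Over the members' single values under the alternatives, 1700 kept direction and side of the threshold, 149 no longer passed, 19 newly passed and 19 changed sign, all of them for genes not called in that comparison. Ranges with each library left out were −0.1005 to 0.1958 for Acad12 and −0.2316 to 0.0389 for Acot2 in the first comparison, and −0.108 to 0.0236 for Slc27a1 in the second. In the third they were −0.0114 to 0.1239 for Slc27a1, −0.0221 to 0.178 for Slc27a4, −0.0134 to 0.0316 for Acsl1, −0.0408 to 0.1059 for Acsl4, −0.0215 to 0.0702 for Crat, −0.1247 to 0.1172 for Mlycd, −0.0178 to 0.0217 for Acad9, −0.1374 to 0.163 for Etfb and −0.1843 to 0.112 for Acad12. Acsl3 was at −0.0002 in the first comparison with total-count scaling, and Acad9 in the third at −0.0051 with upper-quartile scaling and −0.015 with quantile normalization. The cause was not tested. Depth limits Cpt1b most, with at most 26.1 normalized counts in a library.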
